A study of Arabidopsis thaliana with 9 samples.

Results

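The 7 genes described here form the core loop of the Arabidopsis circadian clock that the array could measure: CCA1 (AT2G46830), LHY (AT1G01060), PRR9 (AT2G46790), PRR7 (AT5G02810), PRR5 (AT5G24470), PRR3 (AT5G60100) and TOC1 (AT5G61380). They were taken by locus code, with every probe on the array, which gave 7 of 5080 loci or transcript names and 21 of 15013 probes, 3 for each gene and all for 1 transcript version. All 21 passed the filter on dim probes, and 18 were well above background on all 9 arrays. The genes were picked with their differences between mutants and wild type in view, so those differences are a description without a test, and the tested contrast is that between the mutants, which uses the same mutant arrays. Total RNA came from seedlings of Arabidopsis thaliana, 2 weeks old, raised on solid MS medium in long days. There were 3 genotypes with 3 biological replicates each: Columbia (Col-0, called WT), the SERRATE mutant se-2, and the cbp20 cbp80 double mutant, whose alleles the labels do not give. SERRATE works with the Dicer enzyme DCL1 in microRNA processing and in splicing, and CBP20 and CBP80 make up the nuclear cap-binding complex. The labels give no hour of harvest, and the part of the hour in any result was not tested.

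The clock is a loop of transcription factors that repress each other in turn through the day. CCA1 and LHY are closely related MYB factors whose transcripts peak around dawn and which repress evening genes, TOC1 among them. The pseudo-response regulators PRR9, PRR7 and PRR5 are expressed in that order from morning to afternoon and repress CCA1 and LHY. PRR3 and TOC1, also called PRR1, peak towards evening: TOC1 represses CCA1 and LHY, and PRR3 protects the TOC1 protein from degradation. A snapshot of these transcripts therefore reads both the state of the loop and the phase of the day at which tissue was taken.

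Values are log2 processed signals less each array's 75th percentile, taken over 1835 probes that were well above background on every array, so that 0 stands for that percentile. Levels of different probes are not comparable. The probes well above background numbered 2192 to 3711 per array, or 14.6% to 24.7%. The WT arrays lay on 3 slides of their own, each with its own scan, and the 6 mutant arrays shared another slide with 1 scan, so genotype and slide cannot be told apart in any difference from WT. Over the 3103 probes tested in that fit, the median SD between arrays was 0.54 for WT, but 0.086 for se-2 and 0.11 for cbp20 cbp80. Repeated spots of the control probes on a single array had a median SD of 0.047 to 0.058 on the mutant arrays. On WT replicates 1, 2 and 3 it was higher, at 0.090, 0.078 and 0.139. These spots are controls only, whereas the SDs between arrays include dim probes. The p-values between the mutants measure only the spread between these arrays, which may be technical. No probe on the array named SERRATE, CBP20 or CBP80, or any of 5 photosynthesis and leaf genes or 4 root genes looked for, so neither the mutations nor the tissue could be checked. In whole seedlings, fewer cells of a type and less RNA per cell cannot be told apart.

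The dawn genes CCA1 and LHY were high in both mutants and low in WT. On its brightest probe, LHY gave -1.16, -0.17 and -2.51 in WT replicates 1, 2 and 3. In se-2 it reached 3.95, 4.11 and 4.03, and in cbp20 cbp80 it reached 3.39, 3.39 and 3.36. All mutant arrays lay above all WT arrays, with 0.17 below the scaling percentile as the highest WT value. Such separation was found on 24.8% of tested probes in se-2 and 28.3% in cbp20 cbp80. CCA1 gave -2.48, -0.12 and -4.30 in WT. In se-2 it gave 2.63, 2.54 and 2.59, and in cbp20 cbp80 2.57, 2.58 and 2.52. The mutant values of CCA1 spanned a narrow band, whereas its 3 WT arrays spanned 4.18 on the log2 scale, an 18.1-fold range. Its signal on WT replicate 3 was near background, and with normexp background correction, which lifts such signals, the range was 1.77, or 3.41-fold. All 3 probes of each gene showed this: the se-2 mean exceeded the WT mean by 4.89 to 5.35 for CCA1 and by 5.31 to 5.72 for LHY. In cbp20 cbp80 these differences were 4.86 to 5.05 for CCA1 and 4.66 to 5.01 for LHY. With normexp the brightest probes differed by 3.63 for CCA1 and 4.74 for LHY in se-2, and by 3.53 and 3.97 in cbp20 cbp80. The dimmest CCA1 probe was well above background on 2 of the 3 WT arrays.

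**Figure D1:**
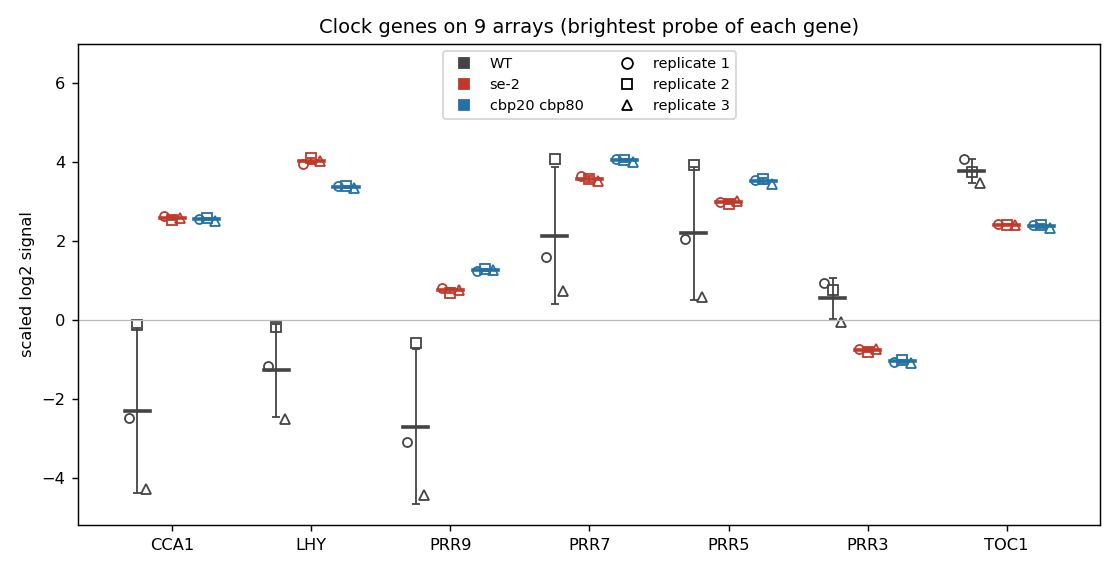
Scaled log2 signal (vertical axis) of the brightest probe of each clock gene on the 3 WT (grey), 3 se-2 (red) and 3 cbp20 cbp80 (blue) arrays, with a symbol for each replicate number, a bar for the mean and whiskers for the SD. On this scaling CCA1, LHY and PRR9 lie higher in both mutants than on any WT array, PRR3 and TOC1 lie lower, and for PRR7 and PRR5 the mutant values fall within the wide WT range. With the percentile over all probes, PRR3 and TOC1 on the brightest probes overlap between se-2 and WT. Levels of different genes come from different probes and are not comparable.

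PRR9, the earliest of the pseudo-response regulators in the day, was also higher in both mutants. Its values were -3.10, -0.58 and -4.43 in WT replicates 1, 2 and 3. They were 0.82, 0.69 and 0.76 in the se-2 replicates, and cbp20 cbp80 had 1.23, 1.29 and 1.27. The groups did not overlap for any of its 3 probes, a separation found on 24.8% of tested probes in se-2 and 28.3% in cbp20 cbp80. The mean difference from WT on this probe was 3.46 ± 0.80 (SE of limma's fit, n = 3) in se-2, an 11-fold higher level, and 3.97 ± 0.80 in cbp20 cbp80, a 15.7-fold higher one. With normexp these differences were 1.96 and 2.40, or 3.89-fold and 5.26-fold, so their size depends on the treatment of background while their direction held under the 6 scalings tried. The 2 dimmer PRR9 probes differed by 4.33 and 4.81 in se-2 and by 4.68 and 5.32 in cbp20 cbp80. They were well above background on 2 and on 1 of the 3 WT arrays, so their WT means, and with them these differences, rest partly on signals near background.

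PRR7 and PRR5, the next regulators of the day, did not separate the mutants from WT on the main scaling. PRR7 gave 1.59, 4.08 and 0.74 in WT replicates 1, 2 and 3. In se-2 it gave 3.65, 3.56 and 3.51, and in cbp20 cbp80 4.08, 4.06 and 4.01. WT replicate 2 lay above the se-2 arrays and level with the highest cbp20 cbp80 array, and WT replicates 1 and 3 lay below all mutant arrays. PRR5 gave 2.06, 3.94 and 0.58 in WT, while se-2 had 3.00, 2.94 and 3.03 and cbp20 cbp80 had 3.54, 3.58 and 3.45. Here too WT replicate 2 was the highest of the 9 arrays and the other WT arrays the lowest. The mean differences from WT were 1.44 ± 0.71 (SE, n = 3) for PRR7 and 0.80 ± 0.69 for PRR5 in se-2, and 1.91 ± 0.71 and 1.33 ± 0.69 in cbp20 cbp80. For PRR5 in se-2 the difference was -0.0092 without WT replicate 3 and 1.67 without WT replicate 2, so a single WT array decided whether it differed from 0. All 3 probes of both genes overlapped between each mutant and WT on this scaling. Under quantile normalization and in the authors' table, 1 PRR7 probe lay above every WT array in se-2. In cbp20 cbp80, 2 PRR7 probes and 1 PRR5 probe did so. With the percentile over all probes, all 3 PRR7 probes in both mutants, all 3 PRR5 probes in cbp20 cbp80 and 1 in se-2 lay above every WT array. That scaling also raised the median difference from WT of all tested probes, to 0.95 in se-2 and 0.77 in cbp20 cbp80. The share of all tested probes above every WT array was not counted on these other scalings, so nothing is read from these counts.

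The evening genes PRR3 and TOC1 had lower means in both mutants than in WT. TOC1 gave 4.09, 3.75 and 3.48 in WT. The se-2 values were 2.42, 2.40 and 2.41, and those of cbp20 cbp80 were 2.41, 2.42 and 2.32. PRR3 gave 0.94, 0.75 and -0.04 in WT. Its se-2 values were -0.74, -0.82 and -0.75, and cbp20 cbp80 had -1.06, -1.01 and -1.09. For both genes and all 6 probes every WT array lay above every mutant array. Such separation was found on 27.2% of tested probes in se-2 and 20.9% in cbp20 cbp80. The 6 probes separated under 4 of the 5 other scalings too, where the share of all tested probes was not counted. The differences on the brightest probes were -1.37 ± 0.17 (SE, n = 3) for TOC1 and -1.32 ± 0.24 for PRR3 in se-2, levels 2.58-fold and 2.49-fold lower. In cbp20 cbp80 they were -1.39 ± 0.17 and -1.60 ± 0.24, levels 2.63-fold and 3.03-fold lower. The probes of PRR3 agreed less closely than those of TOC1: one PRR3 probe differed by -1.99 in se-2 and by -2.25 in cbp20 cbp80. When arrays were scaled by the percentile over all probes, which raised the median difference of all tested probes between se-2 and WT from 0.0024 to 0.95, the se-2 differences shrank to -0.42 for TOC1 and -0.37 for PRR3. Then 1 of the 3 PRR3 probes and 0 of the 3 TOC1 probes lay below every WT array in se-2, against all 6 in cbp20 cbp80. The mean differences kept their sign under the 6 scalings tried.

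Since the WT arrays differed so much, the mutants were set against each WT array in turn. Against WT replicate 3, the se-2 mean was higher by 6.89 for CCA1, 6.54 for LHY, 5.19 for PRR9, 2.83 for PRR7 and 2.41 for PRR5. Against WT replicate 1 these differences were 5.07, 5.19, 3.86, 1.99 and 0.93 in the same order of genes. Against WT replicate 2 they were 2.71, 4.20 and 1.33 for CCA1, LHY and PRR9, and -0.51 and -0.95 for PRR7 and PRR5. CCA1, LHY and PRR9 were thus higher in se-2 than on each single WT array, while the sign for PRR7 and PRR5 turned with the array used. The cbp20 cbp80 mean showed the same turn: against WT replicate 2 it stood at -0.04 for PRR7 and -0.41 for PRR5, and against WT replicate 3 at 3.30 and 2.95. These small differences from WT replicate 2 are open to the scaling, and those of PRR7 in each mutant and of PRR5 in cbp20 cbp80 were above 0 under 3 of the 6 scalings. TOC1 was lower in se-2 by 1.68, 1.34 and 1.07 on the log2 scale against WT replicates 1, 2 and 3, or -1.68, -1.34 and -1.07 as differences, and PRR3 stood at -1.71, -1.52 and -0.73. With the percentile over all probes the direction against WT replicate 3 turned, to 0.04 for TOC1 and 0.39 for PRR3. Over all tested probes the median of such differences lay between -0.083 and 0.071 for se-2 and between 0.075 and 0.21 for cbp20 cbp80.

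**Figure D2:**
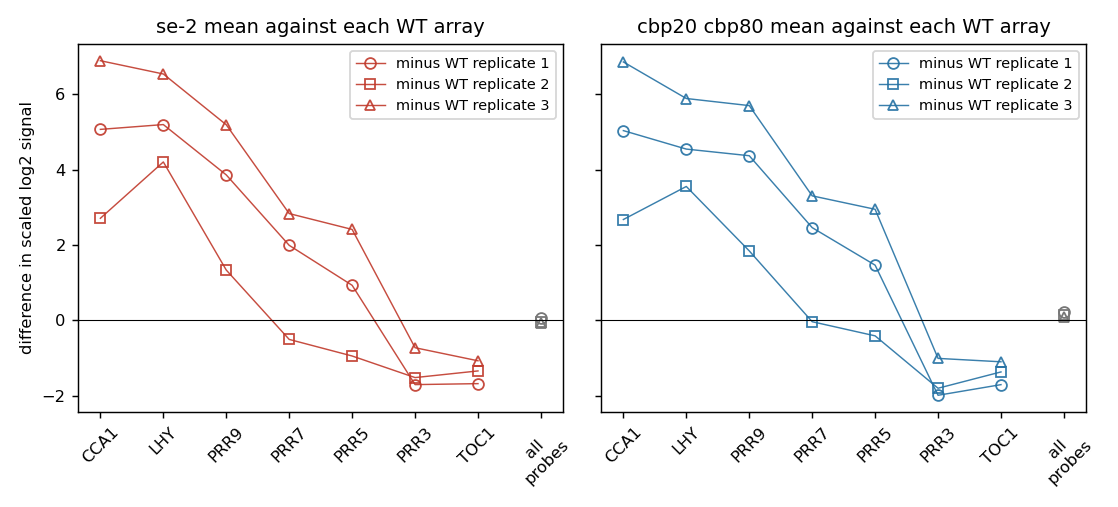
Difference in scaled log2 signal (vertical axis) between the mean of the 3 se-2 arrays (left) or of the 3 cbp20 cbp80 arrays (right) and each single WT array, for the brightest probe of each clock gene, with the median over all 3103 tested probes in grey. CCA1, LHY and PRR9 lie above 0 against every WT array, PRR7 and PRR5 cross 0 against WT replicate 2, and PRR3 and TOC1 lie below 0 throughout on this scaling, though not in se-2 against WT replicate 3 with the percentile over all probes.

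Within WT the clock genes moved in 2 blocks. For CCA1, LHY, PRR9, PRR7 and PRR5, WT replicate 2 was highest, then replicate 1, then replicate 3 on 14 of 15 probes, an order found on 22.1% of all tested probes with 3 values. The exception was a PRR9 probe that was not well above background on WT replicate 1. Of the 14, another PRR9 probe was well above background on only 1 of the 3 WT arrays and a CCA1 probe on 2, so their order rests partly on signals near background. For PRR3 and TOC1, WT replicate 1 was highest, then replicate 2, then replicate 3 on all 6 probes, an order found on 13.1% of tested probes. Under quantile normalization and in the authors' table this second order held on 3 of the 6 probes. WT replicate 2 exceeded WT replicate 1 by 2.36 for CCA1, 2.53 for PRR9, 2.50 for PRR7 and 1.88 for PRR5, but by 0.99 for LHY. It exceeded WT replicate 3 by 4.18, 3.86, 3.34 and 3.36 for the first 4 of these genes and by 2.33 for LHY. With normexp the order of these sizes turned: 1.77, 1.24, 3.31 and 2.91 for CCA1, PRR9, PRR7 and PRR5, and 1.47 for LHY. TOC1 on WT replicate 2 differed from WT replicate 1 by -0.34 and from WT replicate 3 by 0.27, and the latter turned to -0.21 under quantile normalization and -0.27 in the authors' deposited table. Each WT array had its own slide and scan date, and the software's protocol differed for WT replicate 3; the part of slide, scan or protocol in these differences was not tested.

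On the main scaling, the spread of CCA1, PRR9, PRR7, PRR5 and LHY among WT arrays was wide beside that of other probes, but not that of PRR3 and TOC1. The SD of CCA1 was larger than that of 98.8% of tested probes. It was 1.96 for PRR9 (98.1%), 1.74 for PRR7 (96.3%) and 1.68 for PRR5 (95.8%). LHY, with an SD of 1.17, exceeded 86.5% of probes. PRR3 and TOC1, with SDs of 0.52 and 0.30, exceeded 47.5% and 24.2%. With normexp PRR7 and PRR5 stood highest, above 99.7% and 99.4% of probes, then CCA1 (97.1%), LHY (94.6%) and PRR9 (93.6%), and PRR3 and TOC1 exceeded 83.4% and 75.2%. Under quantile normalization LHY, PRR7 and PRR5 exceeded 78.4%, 89.8% and 87.9% of probes, and PRR3 and TOC1 41.9% and 14.4%. In the authors' table these shares were 77.3%, 90.9%, 88.6%, 39.7% and 16.0% in the same order. Among the se-2 arrays the SDs of the 7 genes ran from 0.011 to 0.079, and among the cbp20 cbp80 arrays from 0.021 to 0.066. Over all 21 clock probes the median SD was 1.60 for WT, but 0.029 for se-2 and 0.037 for cbp20 cbp80, against 0.54, 0.086 and 0.11 for all tested probes. On the main scaling the median clock probe was thus more variable than the median tested probe in WT and less variable than it in the mutants. Every clock probe was well above background on every mutant array, whereas the tested probes include some that were not. The part of brightness in these SDs was not tested.

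**Figure D3:**
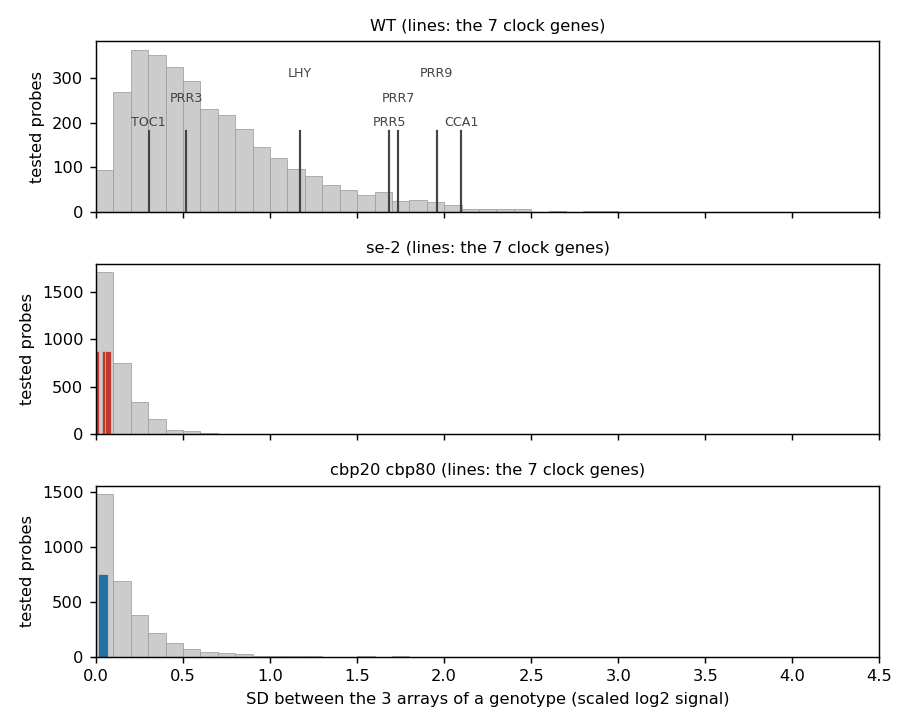
Number of tested probes (vertical axis, of 3103) by their SD between the 3 arrays of WT, se-2 and cbp20 cbp80 (horizontal axis, scaled log2 signal, shared by the panels), with a line at the SD of each clock gene's brightest probe. On the main scaling, in WT the lines of PRR5, PRR7, PRR9 and CCA1 lie in the upper tail, and in both mutants all 7 lines lie below 0.08.

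By limma, with a Benjamini-Hochberg adjusted p under 0.05, 9 of the 21 clock probes were past the threshold as higher and 6 as lower in se-2 against WT. The same rule took 20.1% of all tested probes as higher and 20.9% as lower. In cbp20 cbp80 the counts were again 9 and 6, against 24.1% and 16.3% of tested probes. In both mutants the 9 were the probes of CCA1, LHY and PRR9, the 6 were those of PRR3 and TOC1, and groups did not overlap for the same 15 probes. Non-overlap was found on 24.8% of tested probes as higher and 27.2% as lower in se-2, and on 28.3% and 20.9% in cbp20 cbp80. With the slide as a random block, 5 clock probes remained in each mutant: all 3 of LHY and 1 of CCA1 as higher, and 1 of PRR3 as lower. That fit took 5% of all tested probes as higher and 1.61% as lower in se-2, and 4.67% and 0.902% in cbp20 cbp80. With the percentile over all probes, the clock counts were 13 higher and 1 lower in se-2 and 14 and 6 in cbp20 cbp80. For se-2 that scaling took 1762 of all 3103 tested probes as higher and 177 as lower, and for cbp20 cbp80 1486 and 229. Without WT replicate 2, all 21 clock probes were past the threshold in each mutant, 15 higher and 6 lower. For se-2 the fit without that array took 820 of all 3103 tested probes as higher and 798 as lower. For cbp20 cbp80 the fits that left out 1 array took 929 to 1621 of all tested probes. Nothing is read from these counts, since the genes were chosen on this contrast and both mutants share the WT arrays. The median difference of the 21 clock probes was 1.43 in se-2 and 1.90 in cbp20 cbp80, against 0.0024 and 0.17 for all tested probes.

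The mutants were compared with each other on their 6 arrays, which shared a slide and a scan. LHY was higher in se-2 than in cbp20 cbp80, PRR9, PRR7 and PRR5 were lower, PRR3 was slightly higher, and CCA1 and TOC1 did not pass on their brightest probes. Of the 21 clock probes, 16 passed limma's test, 7 as higher and 9 as lower in se-2. Over the 3040 probes tested, 48.7% passed, 13.8% as higher and 34.8% as lower, so a call in itself was common. The median difference was 0.027 for the clock probes and -0.15 for all tested probes, and that shift depends on the scaling, with 0.0022 under median scaling and 0.20 with the percentile over all probes. Under those scalings all tested probes split into 704 higher and 632 lower, and into 1075 and 289, against 421 and 1058 here. Clock probes split into 12 and 9, and into 12 and 1.

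LHY exceeded its cbp20 cbp80 level in se-2 by 0.65 ± 0.055 (SE, n = 3), or 1.57-fold, with a 95% interval of 0.51 to 0.79, and limma's adjusted p was 0.000496. All 3 se-2 arrays lay above all 3 cbp20 cbp80 arrays. The share of all tested probes that separated in this way was not counted, so nothing is read from it. The other probes of LHY gave 0.71 and 0.72. Relative to the median of all tested probes the difference was 0.80, and 92.5% of probes differed by less or in the other direction. CCA1, the partner of LHY, differed by 0.03 ± 0.046, with an interval of -0.083 to 0.15 and an adjusted p of 0.59, which does not show that its level was the same. Its other probes gave 0.14 and 0.30, and limma's adjusted p for these was 0.044 and 0.0534. The intervals of LHY and CCA1 on the brightest probes did not overlap. That of the dimmest CCA1 probe, 0.051 to 0.55, did overlap that of the brightest LHY probe. The difference between the genes was not tested.

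PRR9, PRR7 and PRR5 were lower in se-2 than in cbp20 cbp80. The differences were -0.51 ± 0.050 for PRR9 (SE, n = 3; interval -0.63 to -0.38), -0.47 ± 0.053 for PRR7 (-0.60 to -0.34) and -0.53 ± 0.054 for PRR5 (-0.67 to -0.40). Their adjusted p values by limma were 0.000857, 0.00136 and 0.000899, and all 9 probes of these genes passed, with differences from -0.59 to -0.35. Relative to the median of all tested probes they stood at -0.36, -0.32 and -0.38. Of the tested probes, 19.8%, 22.8% and 18.0% were lower still than these genes in turn. With the percentile over all probes the differences were -0.16, -0.12 and -0.19 and none passed, since limma's adjusted p was 0.144, 0.32 and 0.0863.

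PRR3 was higher in se-2 by 0.28 ± 0.047 (SE, n = 3; interval 0.17 to 0.40), where limma's adjusted p was 0.00518, and all 3 of its probes passed, at 0.26 to 0.34. TOC1 differed by 0.03 ± 0.045, with an interval of -0.087 to 0.14 and an adjusted p of 0.654, and its other probes stood at 0.10 and -0.01. Under median scaling CCA1 and TOC1 passed as well, at 0.19 and 0.18, where limma's adjusted p was 0.0178 and 0.0151. With the percentile over all probes they passed at 0.38 each, where it was 0.00921 and 0.0111, and with normexp CCA1 passed at 0.11, where it was 0.0196. All 7 genes kept the sign of their difference under the 6 scalings. In a fit of all 9 arrays, which takes the larger WT spread as the error of the mutants too, no clock probe passed and the adjusted p of LHY was 0.549 by limma; at an adjusted p under 0.05 that fit called 192 probes in all.

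**Figure D4:**
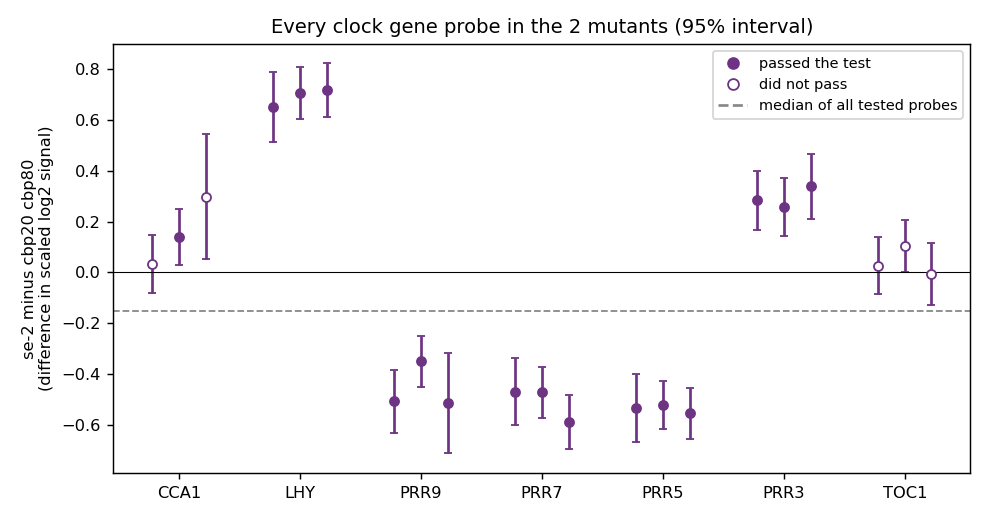
Difference in scaled log2 signal between se-2 and cbp20 cbp80 (vertical axis) for each of the 21 clock probes, 3 per gene from brightest to dimmest, with 95% intervals from limma's fit of the 6 mutant arrays. Filled points passed at an adjusted p under 0.05. The 3 probes of LHY lie at 0.65 to 0.72, the 9 probes of PRR9, PRR7 and PRR5 at -0.59 to -0.35, and the dashed line marks the median of all tested probes at -0.15.

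Of 29 further clock genes looked for, the array held 1, CHE (AT5G08330), a TCP factor that represses CCA1. Of 23 genes of light signalling and clock output it held 8. These were the growth-promoting bHLH factor genes PIF4 and PIF5, their relative PIF3, HFR1, whose protein inhibits such factors, the photoreceptor genes PHYA and PHYB, COP1, which encodes a ubiquitin ligase, and HY5, a bZIP factor gene. By their brightest probes, limma called 0 of these 9 genes higher and 1 lower in se-2 against WT, 2 higher and 1 lower in cbp20 cbp80 against WT, and 0 higher and 5 lower in se-2 against cbp20 cbp80. By probe, 18.5%, 29.6% and 70.4% of their 27 probes passed, against 41.0%, 40.4% and 48.7% of all tested probes. PIF3 was the gene called lower than WT in both mutants. Its brightest probe gave -1.26 in se-2 and -1.22 in cbp20 cbp80. There limma's adjusted p was 0.00362 and 0.00456, or 0.153 and 0.188 once the slide was a block. Another PIF3 probe gave -0.78 and -0.80 and did not pass, as limma's adjusted p was 0.0597 and 0.0562. The dimmest PIF3 probe gave -1.60 and -1.37.

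PIF4 had the pattern of PRR7. It gave 2.57, 5.11 and 1.86 in WT replicates 1, 2 and 3. In the se-2 replicates it gave 4.39, 4.37 and 4.41, and in those of cbp20 cbp80 5.11, 5.05 and 5.04. WT replicate 2 again stood with the mutants and the other WT arrays below them. PIF4 was lower in se-2 than in cbp20 cbp80 by 0.68 on the log2 scale, or -0.68 ± 0.043 as a difference (SE, n = 3), where limma's adjusted p was 0.000176. PIF5 was at -0.42 ± 0.040 and CHE at -0.60 ± 0.059 in that contrast, and limma's adjusted p was 0.000756 and 0.000847. The steepest of these differences was that of HFR1, at -2.72 ± 0.061. CHE differed between se-2 and WT by -0.01 ± 0.38, with an interval of -0.88 to 0.87.

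The probes most like each clock gene over the 9 arrays were found by Pearson's r, a description only. For CCA1, LHY, PRR9, PRR3 and TOC1 it takes in both the split between the WT slides and the mutants' slide and the spread among WT arrays. For PRR7 and PRR5 it takes in the split between WT replicates 1 and 3 and the other arrays. The part of each in r was not tested. Every transcript with MIR in its array name counted as named, whereas other names needed a symbol in RefSeq's gene table, which favours microRNA precursors among the names. For CCA1, LHY and PRR9 the likest named transcripts were such precursors: AT1G31173, the MIR167d locus, for CCA1 (r = 0.999), MIR398a for LHY (0.996) and MIR167d again, by its precursor probe, for PRR9 (0.999). Next came MIR399c for CCA1 (0.994), MIR162a and MIR156b for LHY (0.995 for each) and MIR399d for PRR9 (0.993). For PRR7 they were PIF4 (0.999), PIL5 (0.983), also a phytochrome-interacting factor gene, and NAC1 (0.967). For PRR5 they were MIR404 (0.978), EDA3 (0.972) and PIF4 (0.971). PRR3 and TOC1 shared ABI5, a bZIP factor gene of abscisic acid response, and DRB2, which encodes a double-stranded RNA binding protein: r was 0.973 and 0.949 with PRR3 and 0.984 and 0.993 with TOC1. GUT15 (0.973) completed the names for PRR3 and PAD3 (0.974) those for TOC1. The likest transcripts with no symbol were AT1G74088 for CCA1, AT5TU090120 for LHY, AT5G40316 for PRR9, AT3TU036380 for PRR7, AT3TU045020 for PRR5, AT1TU037940 for PRR3 and AT1G58590 for TOC1, with r from 0.987 to 0.998. MIR399c, MIR156b, MIR399d, NAC1, AT5G40316 and AT3TU036380 were well above background on 7 of the 9 arrays, so their r rests partly on signals near background. Such likeness was common: 276 of the 3103 probes had an r above 0.9 with CCA1, 308 with LHY, 178 with PRR7 and 200 with TOC1.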

How the data were processed

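Per the labels, total RNA of 9 seedling samples was labelled with Cy3 and hybridised to 1-colour Agilent arrays. Intensities of single spots were deposited as scanner output, made per the file headers with Agilent Feature Extraction 10.5.1.1 (2 arrays, WT replicates 1 and 2) or 10.7.3.1 (7 arrays). The processed signal is background-subtracted and detrended within the array and not normalized between arrays. The authors' deposited value table holds log2 values of unstated centring and was an alternative. Gene coordinates and probe sequences were not used here.

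Control spots and outlier spots (0 to 39 per array) were left out, and no spot was saturated. Arrays were scaled as described above, and a probe was tested where 1 or more genotypes of the fit had it well above background on all their 3 arrays: 3103 over 9 arrays, with 23 values missing, and 3040 over the 6 mutant arrays. No clock probe value was missing. Limma 3.58.1 in R 4.3.3 fitted a mean per genotype (lmFit, eBayes; two-sided, Benjamini-Hochberg over all tested probes). The slide block had a consensus correlation of 0.948 (duplicateCorrelation). Intervals are at 95%. The number of arrays limits the precision. Each gene is represented by its brightest probe by mean over 9 arrays. For the likest transcripts the rule took, per clock gene, the 3 with a symbol and the 1 without that had the highest r. Symbols came from RefSeq's gene table (assembly TAIR10.1), which matched 1404 probes by locus, or from the array's own name where that held MIR. The scripts were tested on simulated data. Figures used matplotlib 3.10.9. The genes, lists, tests and alternatives were chosen with earlier results of these data known.

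Replicate numbers are shared by the genotypes, but same-numbered arrays did not deviate together (correlations of -0.048 to 0.032 over 9 pairs), so the main fits have no replicate block. Alternatives were 4 other scalings or background corrections (median, quantile, percentile over all probes, normexp with offset 50 on the median signals, as the files hold no mean signal), the authors' table, no filter, a stricter filter, the replicate block, array weights, other sets of arrays, the slide as a block, the mean of a gene's probes and leaving out each array.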

Additional observations from a re-analysis of the deposited data

How the results depend on the processing

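The signs of the clock genes' differences between group means held under the scalings, filters and fits tried, other than leaving out an array. Differences from a single WT array were less firm, as given above for PRR3, TOC1, PRR7 and PRR5. On leaving out an array, TOC1 between the mutants ranged from -0.0032 without cbp20 cbp80 replicate 3 to 0.045 without cbp20 cbp80 replicate 2. PRR5 in se-2 against WT ranged from -0.0092 without WT replicate 3 to 1.67 without WT replicate 2. In the fit of all 9 arrays, 0 clock probes and 192 probes in all differed between the mutants, because that fit pools in the WT spread. With the slide as a random block, 5 clock probes and 205 probes in all were past the threshold in se-2 against WT. In cbp20 cbp80 against WT these counts were 5 and 173, so most calls against WT were not kept by that fit. Each WT array had its own slide, so the fit cannot tell slides from differences between WT replicates. Leaving out 1 array gave 15 to 16 clock probes between the mutants and 15 to 21 in each mutant against WT, with 21 without WT replicate 2. Over all probes it gave 1188 to 1421, 923 to 1619 (se-2) and 929 to 1621 (cbp20 cbp80).

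Counts over all probes moved elsewhere too. Normexp gave 2690 between the mutants, 2568 in se-2 (274 higher, 2294 lower, against 624 and 649) and 1915 in cbp20 cbp80 (347 and 1568, against 748 and 507). No filter gave 7593 between the mutants (388 and 7205) and 9129 in se-2. The percentile over all probes gave 1939 in se-2 (1762 and 177), and 1486 higher and 229 lower in cbp20 cbp80. Array weights gave 797 in se-2 and 824 in cbp20 cbp80, and the stricter filter 751 in cbp20 cbp80. Quantile normalization split the calls between the mutants into 725 higher and 533 lower, the authors' table into 741 and 440, and normexp into 246 and 2444. In cbp20 cbp80 median scaling gave 574 and 722. In se-2 the authors' table gave 809 and 547. Without a filter the adjusted p of PRR3 between the mutants was 0.0563 by limma. The cause was not tested for these counts.

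The replicate block gave 15 clock probes and 1229 probes in all between the mutants, 15 and 1154 in se-2, and 15 and 1140 in cbp20 cbp80. It moved no count by over 1.5 times. Signal over background limits the dimmer PRR9 probes and the dimmest CCA1 probe in WT. On WT replicate 3 the processed signal was low on other probes too, at 12.0 on the brightest CCA1 probe, 10.9 on the brightest PRR9 probe and 7.71 on the dimmest LHY probe.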
